A study of Mus musculus with 96 samples.

Results

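The comparison was between cells assigned to 2 states, IG2 and Multi-Lin-1, among single granulocyte-monocyte progenitors (GMP) from mice without ThPOK. All cells whose entry in the deposited state table read IG2 or Multi-Lin-1 for the knockout were taken, which gave 31 IG2 cells and 26 Multi-Lin-1 cells, 57 of the 96 labelled cells. Of the other labelled cells, 12 were assigned to the state proNeu-1 and 27 had no state. Every cell had the same labels: C57BL/6 strain, genotype ThPOK-/-, bone marrow GMP, no treatment, with no age given. Bone marrow of the hind limbs was enriched for CD117 (Kit) on beads, sorted by antibody stain, and separated and lysed cell by cell on a Fluidigm C1 chip. The cDNA was made with the SMARTer kit and the libraries with Nextera XT. The labels do not say how many mice gave the cells, so the 57 cells were treated as cells of 1 sample. The 2 states were therefore compared by description only, with no significance test, and no wild-type cell entered the comparison. An SD below is the spread between cells, not between animals. How the states were assigned is not given in the sources used here. The state names may rest on the same expression values, so a difference in a gene that could define a state is a description of that state.

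GMP are marrow progenitors whose usual progeny are neutrophils and monocytes. During early neutrophil commitment a cell fills its primary (azurophil) granules with serine proteases such as neutrophil elastase and with the haem enzyme myeloperoxidase, all of which pass through the endoplasmic reticulum. Progenitors that have not settled on 1 fate can carry transcripts of several lineages together, among them the transcription factor Gata2, which is active in stem cells, mast cells and basophils. ThPOK is a zinc finger transcription factor encoded by Zbtb7b and is best known for directing T cells to the CD4 lineage.

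The deposited expression values were log2(TPM + 1), where TPM is a transcript's share of a cell's RNA, scaled to transcript length, with the same total in each cell. A gene counted as detected where its TPM was at least 1. IG2 cells had from 2540 to 5133 detected genes, with a median of 3940, and Multi-Lin-1 cells from 1660 to 3973, with a median of 2950. The ranges overlapped, but the typical IG2 cell held more detected genes. Both states came from both numbers that the labels carry, 078 (16 IG2 and 11 Multi-Lin-1 cells) and 079 (15 and 15 cells). What these numbers stand for is not given. Read depth per cell is unknown, so the number of detected genes was the available guide to it. Its part in the differences below was not tested, and the values were also computed with a linear adjustment for detected genes and label number, and in cells with 2500 to 4500 detected genes. That range kept 26 IG2 cells and 17 Multi-Lin-1 cells, whose medians of 3881.5 and 3342 detected genes were closer to each other. Zbtb7b, the knocked-out gene, was detected in 0 of 31 IG2 cells and in 2 of 26 Multi-Lin-1 cells, with a highest value of 1.64 on the log2 scale. Which part of the gene was deleted is not given, so this value does not check the genotype.

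Of 23955 genes in the table, 8139 were detected in at least 10% of the 57 cells and were compared. The difference throughout is the mean log2(TPM + 1) in IG2 minus that in Multi-Lin-1. A gene was counted as higher in a state when its mean was higher there by 2 or more, about 4-fold on that scale. The count was 740 genes (9.09% of those compared) for IG2 and 24 (0.295%) for Multi-Lin-1. With a difference of 1 or more it was 2512 (30.9%) and 207 (2.54%). The median difference over all compared genes was 0.53, toward IG2. It was 0 with medians over cells in place of means. After adjustment for detected genes that median was 0.02 and the counts were 264 and 178, of which 233 and 23 were among the first 740 and 24. IG2 thus held 96.9% of the counted genes as deposited and 59.7% after adjustment. In the cells with 2500 to 4500 detected genes the counts were 401 and 93, or 81.2% for IG2, and 366 and 23 of the first counts were among them. Centring each cell on genes detected in nearly all cells gave 300 and 117 genes, or 71.9% for IG2, with a median difference of -0.165. After adjustment, 23 of the 24 Multi-Lin-1 genes and 233 of the 740 IG2 genes thus stayed past 2. With medians over cells 17 and 604 did so, and with 10 in place of 1 added to the TPM, 8 and 110. Adjustment moved the median difference by -0.507, which carries Multi-Lin-1 genes away from the threshold and IG2 genes toward it. The counts that stayed after adjustment therefore do not rank the 2 sets by stability. Centring moved every difference by the same -0.696, so none of the 24 could drop out under it. At the threshold, Wdr36 (2.0009) was the last gene inside for IG2 and 4833439L19Rik (1.9998) the first outside, and Irf2 (-2.03) and Stx3 (-1.99) had these places for Multi-Lin-1.

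**Figure D1:**
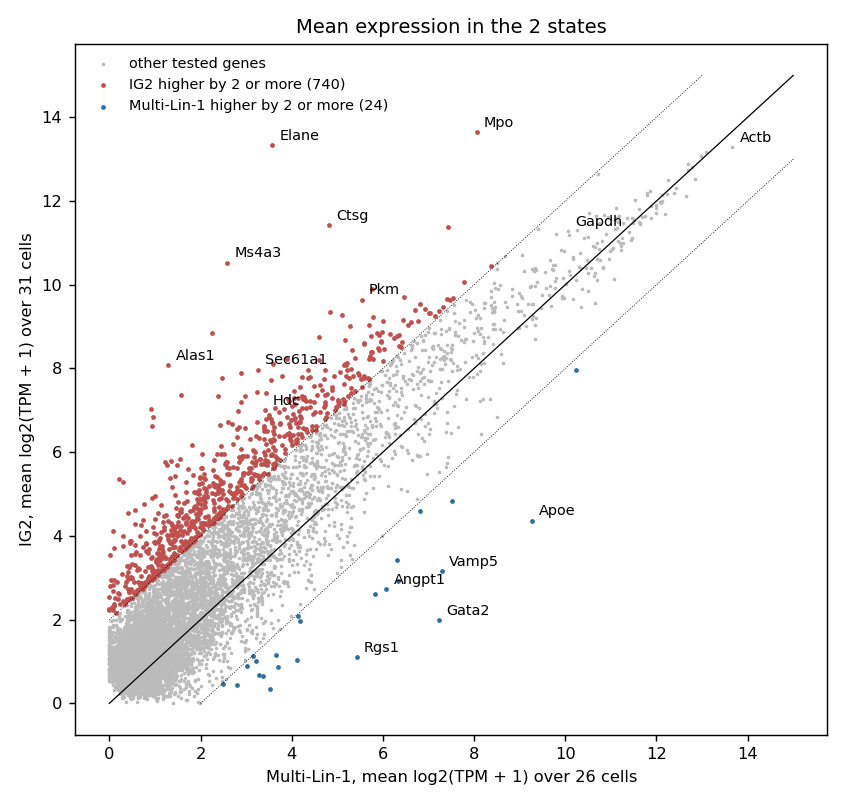
Mean log2(TPM + 1) of each of the 8139 compared genes in Multi-Lin-1 (horizontal, 26 cells) and IG2 (vertical, 31 cells); the solid line marks equal means and the dotted lines a difference of 2. The cloud of low genes lies above the solid line, Elane and Mpo stand far above it, and 24 genes lie below the lower dotted line.

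The primary granule genes made the clearest contrast. Of 12 genes on the primary granule list, 9 were higher in IG2 by 2 or more, none was higher in Multi-Lin-1, and the median difference over all 12 was 4.48, beside 0.53 over all compared genes. After adjustment for detected genes the list median was 3.48. The summed level of the list was 11400 to 78400 TPM in IG2 cells, with a median of 40500, and 977 to 17100 TPM in Multi-Lin-1 cells, with a median of 4270. As a share of all transcripts the list took a median of 4.05% in IG2 and 0.427% in Multi-Lin-1.

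Elane encodes neutrophil elastase. Its log2 level in IG2 cells ran from 9.89 to 14.90, with a median of 13.88, and in Multi-Lin-1 cells from 0.88 to 8.79, with a median of 3.07. Every IG2 cell lay above every Multi-Lin-1 cell, and Elane was the only compared gene with such a gap (0.0123% of those compared). The mean was 13.33 ± 1.52 (SD, n = 31 cells) in IG2 and 3.58 ± 2.09 (SD, n = 26 cells) in Multi-Lin-1, a difference of 9.75. Elane was nonetheless detected in 24 of the 26 Multi-Lin-1 cells. Mpo, which encodes myeloperoxidase, ran from 12.30 to 14.76 in IG2 (median 13.95) and from 1.42 to 12.82 in Multi-Lin-1 (median 9.73). All Multi-Lin-1 cells had detected Mpo, but 25 of 31 IG2 cells were above the highest of them. The Mpo means were 13.64 ± 0.78 (SD, n = 31 cells) and 8.05 ± 3.71 (SD, n = 26 cells), so the Multi-Lin-1 cells were spread far wider. The difference was 5.58 as deposited and 4.001 after adjustment for detected genes.

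Ctsg, which encodes cathepsin G, showed the same uneven spread, with 10.39 to 13.03 in IG2 (median 11.37) and 0 to 11.36 in Multi-Lin-1 (median 3.86). Its SD was 0.66 over the IG2 cells and 4.08 over the Multi-Lin-1 cells, and its difference was 6.60. Ms4a3, a membrane protein gene used as a mark of granulocyte-monocyte progenitors, ran from 5.47 to 12.50 in IG2 (median 10.87) and from 0 to 10.83 in Multi-Lin-1 (median 0.94), a difference of 7.94. Of the Multi-Lin-1 cells, 13 of 26 had detected Ms4a3. Prtn3, the gene of proteinase 3, was in between at 11.37 ± 0.69 (SD, n = 31 cells) and 7.43 ± 3.65 (SD, n = 26 cells). Elane, Mpo, Ctsg, Prtn3 and Ms4a3 were thus detected in all 31 IG2 cells.

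Other members were uneven inside IG2. Hp (haptoglobin) was detected in 22 of 31 IG2 cells and 2 of 26 Multi-Lin-1 cells, and Prss57, a further granule serine protease, in 22 and 5. The Prss57 difference, from means of 4.75 and 0.76, was 1.74 after adjustment for detected genes, under the threshold. Igsf6, an immunoglobulin superfamily gene, was detected in 30 IG2 cells and 3 Multi-Lin-1 cells, with a difference of 6.10. Lyz2, the myeloid lysozyme gene, did not follow the proteases: its means were 4.18 ± 3.91 (SD, n = 31 cells) in IG2 and 4.47 ± 4.07 (SD, n = 26 cells) in Multi-Lin-1. Nkg7 was high in both, at 11.33 ± 0.91 and 9.41 ± 3.36. Fcnb was detected in 1 cell of each state.

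**Figure D2:**
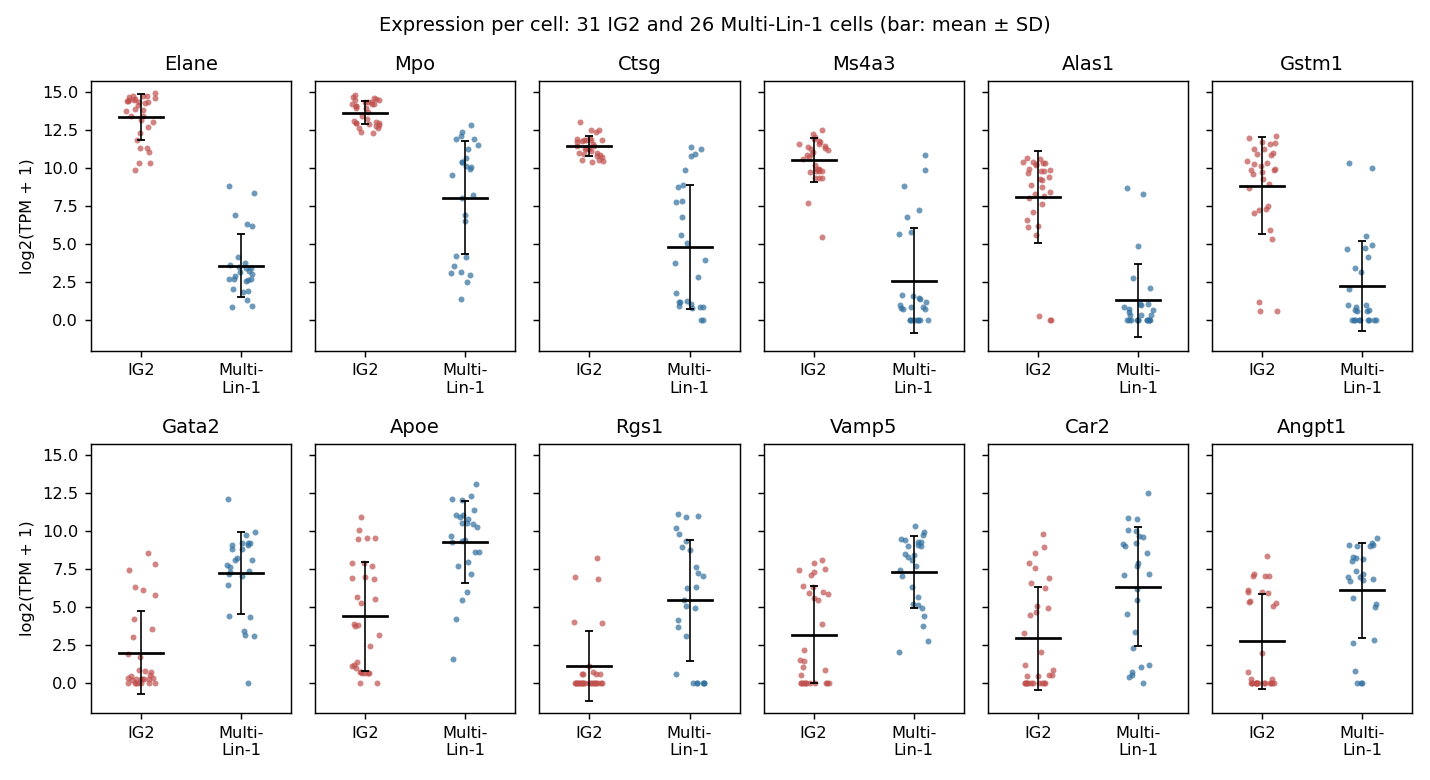
Log2(TPM + 1) of 12 genes in each IG2 cell (red, 31 cells) and Multi-Lin-1 cell (blue, 26 cells); bars give the mean and SD over cells. Elane separates the states without overlap, the 5 other genes of the upper row are higher in IG2 with some overlap, and the 6 genes of the lower row are higher in Multi-Lin-1 while several IG2 cells reach the Multi-Lin-1 range.

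The promoter sequences of 4 of these genes are shown because the genes differed together. They are the bases just upstream of the RefSeq transcription start on GRCm38.p6, written in the direction of transcription. Capitals mark matches, on either strand, to AGATAA (bound by GATA factors), TTGCNNAA (C/EBP factors) or GAGGAA (PU.1).
Elane, chr10:79886062-79886311, plus strand: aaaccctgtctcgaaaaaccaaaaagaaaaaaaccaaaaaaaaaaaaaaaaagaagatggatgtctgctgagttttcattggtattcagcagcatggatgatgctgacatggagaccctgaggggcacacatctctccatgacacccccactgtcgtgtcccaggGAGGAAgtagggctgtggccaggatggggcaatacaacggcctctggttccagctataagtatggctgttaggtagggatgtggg
Mpo, chr11:87793534-87793783, plus strand: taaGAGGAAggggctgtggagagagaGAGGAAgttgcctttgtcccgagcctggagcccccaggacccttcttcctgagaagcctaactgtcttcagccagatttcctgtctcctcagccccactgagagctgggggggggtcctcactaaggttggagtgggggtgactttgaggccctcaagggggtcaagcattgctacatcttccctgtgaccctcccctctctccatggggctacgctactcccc
Ctsg, chr14:56102575-56102824, minus strand: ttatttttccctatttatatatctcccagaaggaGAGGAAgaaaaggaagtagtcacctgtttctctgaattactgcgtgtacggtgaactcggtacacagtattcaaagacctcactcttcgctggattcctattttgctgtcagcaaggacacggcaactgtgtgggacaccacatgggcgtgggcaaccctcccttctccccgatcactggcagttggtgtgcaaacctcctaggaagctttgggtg
Ms4a3, chr19:11640852-11641101, minus strand: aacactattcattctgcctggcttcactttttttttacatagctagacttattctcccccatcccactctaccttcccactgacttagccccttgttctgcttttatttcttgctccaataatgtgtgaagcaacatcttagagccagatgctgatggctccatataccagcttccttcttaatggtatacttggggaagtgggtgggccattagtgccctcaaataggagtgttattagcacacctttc
GAGGAA occurred 1 time in the Elane window, 2 times in that of Mpo and 1 time in that of Ctsg, and none of the 3 motifs occurred in that of Ms4a3. Over the longer RefSeq windows, which run a further 50 bases past the start, GAGGAA was in 26.5% of 705 promoters of genes higher in IG2, 42.3% of 26 promoters of genes higher in Multi-Lin-1, 27% of 7859 promoters of all compared genes and 28.3% of all 32851 promoters. In the same order, AGATAA was in 4.54%, 19.2%, 6.3% and 11.2% of these promoters, and TTGCNNAA in 10.4%, 15.4%, 8.47% and 10.8%. The Multi-Lin-1 shares rest on 5, 4 and 11 promoters for AGATAA, TTGCNNAA and GAGGAA. RefSeq promoters were matched by symbol for 585 of the 740 genes and 18 of the 24. A match of letters is a description of the window and shows no binding.

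Genes of the secretory route were higher in IG2 as a group. Of 16 genes for translocation into the endoplasmic reticulum and folding there, 9 were higher in IG2 by 2 or more, beside 9.09% of all compared genes, and none was lower. The median difference was 2.58 (1.44 after adjustment for detected genes), beside 0.53 (0.02) over all compared genes. Sdf2l1, an endoplasmic reticulum chaperone component, ran from 1.28 to 10.57 in IG2 (median 7.83) and from 0 to 10.12 in Multi-Lin-1 (median 0). It was detected in all 31 IG2 cells and 7 of 26 Multi-Lin-1 cells, with a difference of 5.81. Sec61a1, the channel subunit of the translocon, had a difference of 4.71, and P4hb, a protein disulphide isomerase, one of 3.45. Hspa5, the chaperone BiP, was detected in 31 and 25 cells and differed by 2.67, which was 2.48 after adjustment. Ssr2, a translocon-associated subunit, differed by 2.69 as deposited and by 0.75 after adjustment. Tmed3, a cargo receptor between the endoplasmic reticulum and Golgi, was among the 12 largest differences at 5.29, but its single highest value, 10.96, was in a Multi-Lin-1 cell.

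Alas1, the first and rate-limiting enzyme of haem synthesis outside red cells, was higher in IG2 by 6.78. It ran from 0 to 10.67 in IG2 (median 9.23, detected in 28 of 31 cells) and from 0 to 8.71 in Multi-Lin-1 (median 0.34, detected in 7 of 26). It was the only 1 of 9 haem synthesis genes past 2, and the list median was 0.39. Alas2, the red cell form of the enzyme, was detected in 1 IG2 cell and no Multi-Lin-1 cell. Of 16 antioxidant and glutathione genes, 3 were past 2, all higher in IG2, beside 9.09% of all compared genes: Gstm1 (6.60), Prdx5 (3.98) and Gstp1 (3.02). The list as a whole was not raised, with a median of 0.35, beside 0.53 over all compared genes, and of -0.19 after adjustment for detected genes. Gstm1, a glutathione transferase, was detected in 29 of 31 IG2 cells and 11 of 26 Multi-Lin-1 cells, with medians of 9.87 and 0.75. Gstp1 was under 2 after adjustment, at 1.48.

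Glycolysis genes were past 2 in IG2 for 6 of 14 members, beside 9.09% of all compared genes, and for none in Multi-Lin-1. The list median was 1.64, beside 0.53 over all compared genes, and 0.90 after adjustment for detected genes. Pgam1 (4.15), Eno1 (4.14) and Pkm (4.10) had the largest differences, and their values after adjustment for detected genes were 3.06, 2.35 and 2.45. Of 19 S phase genes 7 were past 2 in IG2, with a median of 1.64 that became 0.14, and of 20 G2/M genes 4 were past 2, with a median of 1.41 that became -0.30. None of the 11 was past 2 after adjustment. Mcm5, a subunit of the replicative helicase, moved from 2.37 to 1.16, and Top2a, topoisomerase 2 of dividing cells, from 2.29 to -0.37.

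Further genes among the 12 largest in IG2 were Rgcc, Anxa3 and Trem3. Anxa3, an annexin of neutrophil granules, was detected in 26 of 31 IG2 cells and 6 of 26 Multi-Lin-1 cells (medians 7.94 and 0), and 22 IG2 cells were above every Multi-Lin-1 cell. Trem3, a myeloid receptor gene, was found in 21 IG2 cells and 1 Multi-Lin-1 cell, so its difference of 5.14 came with 10 IG2 cells without it. Rgcc, a regulator of cell cycle gene, differed by 5.88. All 12 of the named genes were higher again in the 12 proNeu-1 cells, where the Elane mean was 14.91 ± 0.41 (SD, n = 12 cells) and that of Gstm1 11.28 ± 0.54 (SD, n = 12 cells). For 11 of the 12, the mean of the 27 cells without a state lay within 2 of that in Multi-Lin-1.

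**Figure D3:**
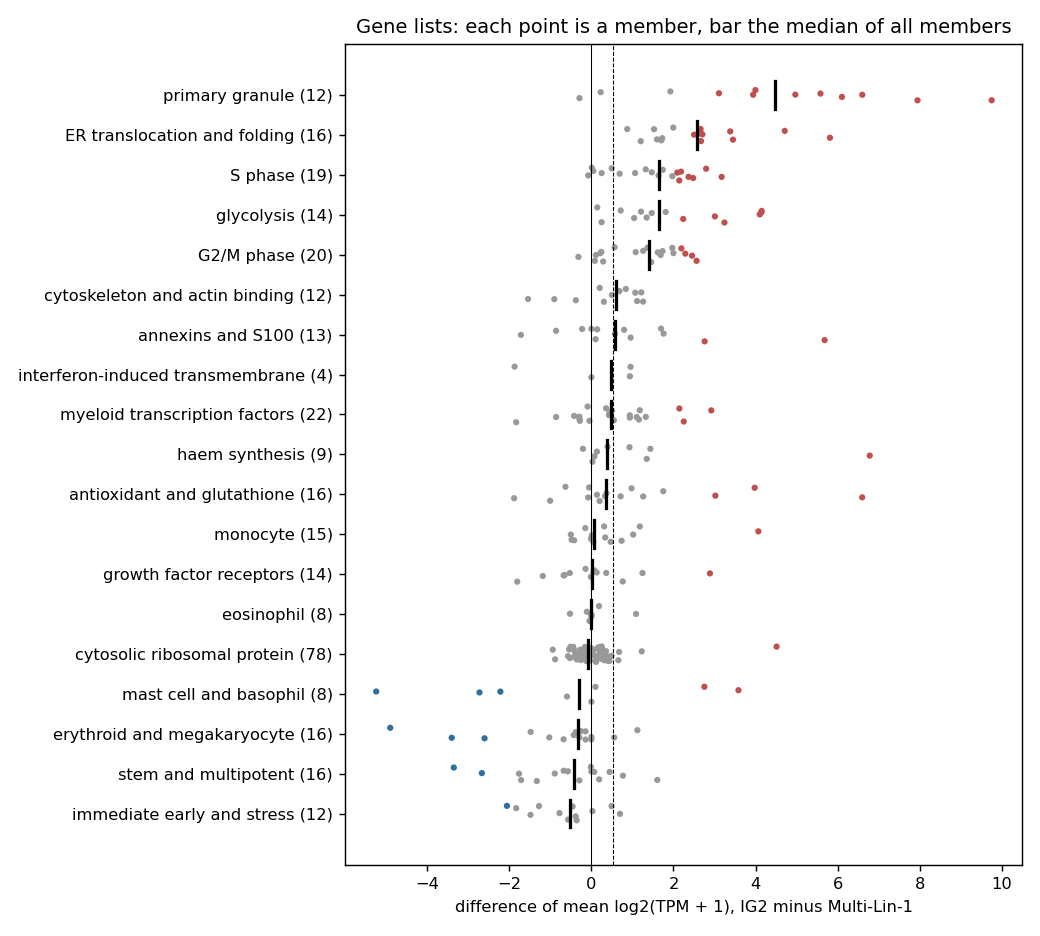
Difference of mean log2(TPM + 1), IG2 minus Multi-Lin-1, for each member of 19 gene lists (member numbers in brackets); red and blue points are past 2 in IG2 and Multi-Lin-1, black bars are medians over all members and the dashed line is the median of all compared genes, 0.53. The primary granule and endoplasmic reticulum lists lie furthest right, and the mast cell and basophil list has points past 2 on both sides.

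Of the transcription factors of the granulocyte path, Cebpe, Gfi1 and Spi1 were detected in only part of IG2. Of the 22 listed myeloid transcription factors, 9 were detected in at least 50% of IG2 cells and 8 in at least 50% of Multi-Lin-1 cells. Of 22 myeloid transcription factors 3 were past 2 in IG2, a share near the 9.09% of all compared genes, and none in Multi-Lin-1. The list median of 0.47 was also near the overall 0.53. Cebpe, a C/EBP factor needed for later granule genes, was detected in 15 of 31 IG2 cells and 0 of 26 Multi-Lin-1 cells, with a highest IG2 value of 9.35. Gfi1, a repressor needed for neutrophil formation, was detected in 15 and 1 cells and differed by 2.25 (1.72 after adjustment). Spi1, the gene of PU.1, was detected in 24 and 9 cells and differed by 2.14. Irf8, the factor of the monocyte and dendritic path, was detected in 6 IG2 cells and no Multi-Lin-1 cell, a difference of 1.18 that did not reach 2. Secondary granule genes were almost absent: Ltf and Camp did not reach a TPM of 1 in any of the 57 cells, Ngp was detected in 1 IG2 cell, and Lcn2 in 6 IG2 cells.

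Ly6c2 was the only 1 of 15 monocyte genes past 2, at 4.07, detected in 18 of 31 IG2 cells and 8 of 26 Multi-Lin-1 cells. The summed level of the monocyte list was 1.4 to 3760 TPM in IG2 (median 248) and 0 to 484 TPM in Multi-Lin-1 (median 59.3). At least 2 members at a TPM of 10 or more were present in 15 of 31 IG2 cells (48.4%, exact Clopper-Pearson 95% interval 30.2% to 66.9%). In Multi-Lin-1 it was 4 of 26 cells (15.4%, 4.36% to 34.9%). These intervals cover the counting of cells only. Csf1r and the other members stayed under 2.

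Gata2 led the 24 genes that were higher in Multi-Lin-1. Its log2 level ran from 0 to 12.08 in Multi-Lin-1 (median 7.88) and from 0 to 8.51 in IG2 (median 0.46). It was detected in 25 of 26 Multi-Lin-1 cells and 11 of 31 IG2 cells, so the ranges overlapped, and 10 Multi-Lin-1 cells were above every IG2 cell. The means were 7.23 ± 2.69 (SD, n = 26 cells) and 1.99 ± 2.74 (SD, n = 31 cells), a difference of -5.24. Apoe, which encodes apolipoprotein E, was detected in every Multi-Lin-1 cell and in 22 of 31 IG2 cells. It ran from 1.58 to 13.07 (median 9.95) in Multi-Lin-1 and from 0 to 10.90 (median 3.77) in IG2, a difference of -4.90. Both differences were as large after adjustment for detected genes, at -5.54 and -5.20.

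Vamp5, a vesicle membrane protein gene, was as general in Multi-Lin-1 as Apoe. It was detected in 26 of 26 Multi-Lin-1 cells, from 2.02 to 10.30 (median 8.17), and in 18 of 31 IG2 cells, from 0 to 8.05 (median 1.48), and 13 Multi-Lin-1 cells were above every IG2 cell. Rgs1, a regulator of G protein signalling, was found in 19 of 26 and 6 of 31 cells, with a difference of -4.33. Fyb, an adaptor protein gene, was at a mean of only 0.35 ± 0.95 (SD, n = 31 cells) in IG2 and at 3.52 ± 3.06 (SD, n = 26 cells) in Multi-Lin-1. Slc22a3, an organic cation transporter gene, and Samsn1, an adaptor gene, differed by -3.09 and -3.23. Ctla2a (-2.89) and Ctla2b (-2.83) are close paralogs, so how their reads were divided is uncertain.

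The remaining 12 of the 24 differed by -2.72 (Ms4a2) to -2.03 (Irf2), and for the 12 named genes the adjusted differences ran from -3.40 (Ctla2a) to -5.54 (Gata2). Lgals9, the gene of galectin 9, was the most abundant of the 24, at means of 10.23 ± 2.01 (SD, n = 26 cells) and 7.95 ± 3.52 (SD, n = 31 cells). All 24 had the same sign in both label numbers, as did 733 of the 740 genes higher in IG2, beside 65% of all compared genes. These counts rest largely on choice, since the genes were taken for a large difference in the same cells. The 65% covers genes whose median absolute difference was 0.653. In proNeu-1 cells the 12 named genes were lower still than in IG2: Apoe had a mean of 1.90 and Angpt1 of 0.56 there. In the cells without a state, 11 of the 12 were within 2 of their Multi-Lin-1 mean. For genes with small differences that can still be nearer to IG2. Ctla2a was at 4.33 there, with 3.42 in IG2 and 6.30 in Multi-Lin-1, and Ctla2b at 1.77, with 0.87 and 3.70. Gpr56, the gene outside 2, was at 4.18, with 4.84 and 7.51. The others were nearer to Multi-Lin-1.

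Genes of the stem and multipotent list divided. Angpt1, which encodes the TIE2 ligand angiopoietin 1, differed by -3.35 and Gpr56, an adhesion receptor gene of stem cells, by -2.67 (-4.47 after adjustment). Meis1 and Tal1, transcription factors of stem cells, had differences of -1.76 and -1.71, under the threshold. Kit, the receptor by which the cells were enriched, had means of 3.43 ± 2.62 in IG2 and 3.44 ± 2.87 in Multi-Lin-1. Cd34 was at 7.53 ± 2.28 and 6.77 ± 3.33. Ly6a, the gene of Sca-1, went the other way, detected in 14 of 31 IG2 cells and 0 of 26 Multi-Lin-1 cells, with a difference of 1.61. A count of 0 of 26 cells allows a share of up to 11.5% by the rule of 3 counts of the total (3 of 26), and up to 13.2% by the exact Clopper-Pearson interval.

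Of 16 erythroid and megakaryocyte genes, 3 were past 2 in Multi-Lin-1 and none in IG2, beside 0.295% and 9.09% of all compared genes. They were Apoe, Car2 and Gata1. Only 6 of the 16 passed the detection filter, and the median difference over all 16 was -0.335. Car2, carbonic anhydrase 2, was detected in 22 of 26 Multi-Lin-1 cells and 15 of 31 IG2 cells (medians 7.41 and 0.81). Gata1, the erythroid, megakaryocyte and mast cell factor, was detected in 13 of 26 and 3 of 31 cells, a difference of -2.60. At least 2 members of the list at a TPM of 10 or more were present in 25 of 26 Multi-Lin-1 cells (96.2%, exact 95% interval 80.4% to 99.9%) and 20 of 31 IG2 cells (64.5%, 45.4% to 80.8%). Apoe, detected in all 26 Multi-Lin-1 cells and 22 of 31 IG2 cells, was among the members counted, so these shares lean on it.

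The mast cell and basophil list did not move as 1 group. Gata2, Ms4a2 (-2.72) and Cpa3 (-2.22) were higher in Multi-Lin-1, whereas Hdc (3.58) and Mcpt8 (2.75) were higher in IG2. Hdc, histidine decarboxylase, makes histamine, and it was detected in 27 of 31 IG2 cells (median 8.05) and 11 of 26 Multi-Lin-1 cells (median 0.71). Mcpt8, a basophil protease gene, was detected in 18 and 12 cells. Cpa3, mast cell carboxypeptidase A, was frequent in both, in 21 Multi-Lin-1 cells and 18 IG2 cells, and its highest values were 12.52 and 11.53. Ms4a2, the beta chain of the high affinity IgE receptor, was found in 11 Multi-Lin-1 and 3 IG2 cells, while Fcer1a, its alpha chain, was under a TPM of 1 in all 57 cells. The Cpa3 difference was -3.73 among cells numbered 078 and -0.96 among those numbered 079.

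Of receptors for growth factors and cytokines, Ifngr1, the interferon gamma receptor chain, was the only 1 of 14 past 2. It was detected in all 31 IG2 cells and 21 of 26 Multi-Lin-1 cells and differed by 2.89. Il1rl1, the interleukin 33 receptor, was detected in 1 IG2 cell and 10 Multi-Lin-1 cells (-1.81). Immediate early genes, which respond to handling as well as to signals, had a list median of -0.51. Fosb (-2.06) was past 2 and Egr1 (-1.83), Fos (-1.48) and Jun (-1.28) were not. Of 78 cytosolic ribosomal protein genes 1 was past 2, Rpl30 at 4.51, and the list median was -0.07. Ribosomal protein genes have many near-identical copies in the genome, so the Rpl30 value is uncertain. The list took a median of 18.7% of TPM in IG2 and 23.2% in Multi-Lin-1. Markers of B cells, T and natural killer cells, and of stroma and endothelium were past 2 for none of 12, 12 and 8 members. Their summed levels had medians of 0 TPM in both states for both lymphoid lists, and of 5.92 TPM in IG2 and 4.29 TPM in Multi-Lin-1 for the stromal list.

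Transcripts of different lineages were often found in the same cell. At a TPM of 30 or more, Elane and Gata2 were both present in 6 of 31 IG2 cells (19.4%, exact 95% interval 7.45% to 37.5%) and 3 of 26 Multi-Lin-1 cells (11.5%, 2.45% to 30.2%). At a TPM of at least 1 the order was the reverse, with both in 11 of 31 IG2 cells (35.5%, 19.2% to 54.6%) and 23 of 26 Multi-Lin-1 cells (88.5%, 69.8% to 97.6%), so which state held the pair more often depends on the threshold. At a TPM of 30 or more, Mpo and Gata2 were both present in 6 of 31 IG2 cells and 13 of 26 Multi-Lin-1 cells (50%, 29.9% to 70.1%), and at a TPM of at least 1 in 11 and 25 cells. At the same 30 TPM, Elane and Apoe were both present in 14 of 31 IG2 cells (45.2%, 27.3% to 64%) and 5 of 26 Multi-Lin-1 cells (19.2%, 6.55% to 39.4%). Of 9 lineage lists, counting a list as present with 2 or more members at a TPM of 10 or more, the median was 4 lists per cell in each state, and every cell of both states held at least 2. The stem and multipotent list, which includes Kit, by which the cells were enriched, was present in 96.8% of IG2 and 96.2% of Multi-Lin-1 cells. The primary granule list was present in 100% and 96.2%. Since each of these 2 lists was present in nearly every cell, holding 2 lists says little about a single cell. Why both were so general was not tested. Gata2 belonged to 1 and Flt3 to 2 of the lists. The mast cell and basophil list was present in 24 of 31 IG2 cells and 19 of 26 Multi-Lin-1 cells. Whether 1 chip chamber held more than 1 cell was not tested.

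Splicing was compared by the deposited PSI (percent spliced in), here a fraction from 0 to 1 that gives the share of a splice junction among its competing junctions in a cell. An event is 1 junction against its competitor, so 1 switch between forms often appears as a pair of events of opposite sign. Of 80855 events, 6235 in 935 genes had values in 10 or more cells of each state. Coverage differed: the median number of events with a value was 15583 per IG2 cell and 10136.5 per Multi-Lin-1 cell. Over the compared events, the median number of cells with a value was 24 in IG2 and 14 in Multi-Lin-1. The part of coverage in the PSI values and their spread was not tested. Mean PSI was higher by 0.2 or more in IG2 for 49 events (0.786%) and in Multi-Lin-1 for 44 (0.706%), together 93 events in 52 genes, with 28 genes on both sides. Most compared events were near 1 end in both states: 50.9% had a mean of at most 0.1 in both states and 36.2% at least 0.9. Single cells gave mostly extreme values, 89.8% of them exactly 0 or 1. Only 1 of the 93 events had a difference larger than the SD over cells in both states, the longer form of H2afy. Of the 93, 64 could be compared in both label numbers and 57 had the same sign in both, beside 476 of 897 for all events that differed by 0.05 or more. That number rests partly on choice, since the 93 were taken for a large difference in the same cells. Where the state with fewer cells had exactly 10, 33 of 871 events were past 0.2, and where it had 9, just outside the rule, 25 of 1216 were. Junction coordinates were on mm10 (GRCm38), since 81.2% of 59973 intron-spanning junctions were introns of GENCODE vM21.

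Of the 52 genes with an event past 0.2, 7 were also past a log2 difference of 2, all higher in IG2, beside 171 of the 935 genes with a compared event. Cassette exons gave 29 of the 93 events (2.24% of 1293 compared), alternative acceptors 17 (2.91% of 584), alternative donors 14 (3% of 467) and intron retention 23 (0.867% of 2652). For events in which the retained intron was the form measured, the average of the mean PSI was 0.0233 in IG2 and 0.0239 in Multi-Lin-1 over 1651 events, with 3 and 6 past 0.2.

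Rps24 had the best covered difference. It encodes a small ribosomal subunit protein whose last exons are spliced in several ways. The form whose junction runs from the fourth to the seventh numbered exon, measured against the junction from a 20-base exon, had a PSI of 0.719 to 1 in IG2 (median 0.996, 31 cells) and 0.133 to 1 in Multi-Lin-1 (median 0.75, 25 cells). All IG2 cells lay in the upper part of the range, and the Multi-Lin-1 cells spread over nearly all of it. The means were 0.942 ± 0.089 (SD, n = 31 cells) and 0.668 ± 0.276 (SD, n = 25 cells), a difference of 0.273 that was 0.291 and 0.259 in the label numbers 078 and 079. In cells without a state the mean was 0.902 ± 0.145 (SD, n = 26 cells), nearer to IG2. The short exon, at chr14:24495430-24495449 on GRCm38, plus strand, is shown whole because its junction is the one used more in Multi-Lin-1.
Rps24 exon: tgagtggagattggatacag

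In Rbm39 and Tra2b the exon used less in IG2 belonged to a GENCODE transcript marked for nonsense-mediated decay. That pathway destroys mRNA with an early stop codon. These genes, and Sarnp below, were chosen after their values were seen. Rbm39 encodes a splicing factor, and the inclusion junction of its 73-base exon had a PSI of 0 to 0.9 in IG2 (median 0.0561, 28 cells) and 0 to 1 in Multi-Lin-1 (median 0.438, 21 cells). No inclusion was seen in 10 IG2 cells and 3 Multi-Lin-1 cells. The means were 0.181 ± 0.253 (SD, n = 28 cells) and 0.464 ± 0.358 (SD, n = 21 cells), and the junction at the other end of the exon had 0.104 and 0.325. Tra2b, a further splicing regulator, carries a well known exon of this kind. The form without it had a PSI of 0.693 ± 0.379 (SD, n = 27 cells) in IG2 and 0.428 ± 0.399 (SD, n = 17 cells) in Multi-Lin-1, with cells at both 0 and 1 in each state. Sarnp, an mRNA export factor gene, also skipped an exon more in IG2 by mean PSI. Whether that exon belongs to a decay transcript was not checked. Its skipping junction was at 0.871 to 1 in 23 IG2 cells. In 12 Multi-Lin-1 cells the junction was at 0 to 1, with 7 cells at 1. The gene levels of Rbm39, Tra2b and Sarnp differed by 0.91, 1.08 and 1.09, all under 2. The coding start of the Rbm39 exon (whole) and of the Tra2b exon (first 81 bases) are shown with the stop codon that ends the reading frame in capitals.
Rbm39 exon, chr2:156178880-156178952, minus strand: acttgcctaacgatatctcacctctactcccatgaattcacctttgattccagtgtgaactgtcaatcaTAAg
Tra2b exon, chr16:22259181-22259261, minus strand: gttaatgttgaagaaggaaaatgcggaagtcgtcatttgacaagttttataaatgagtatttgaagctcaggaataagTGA

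**Figure D4:**
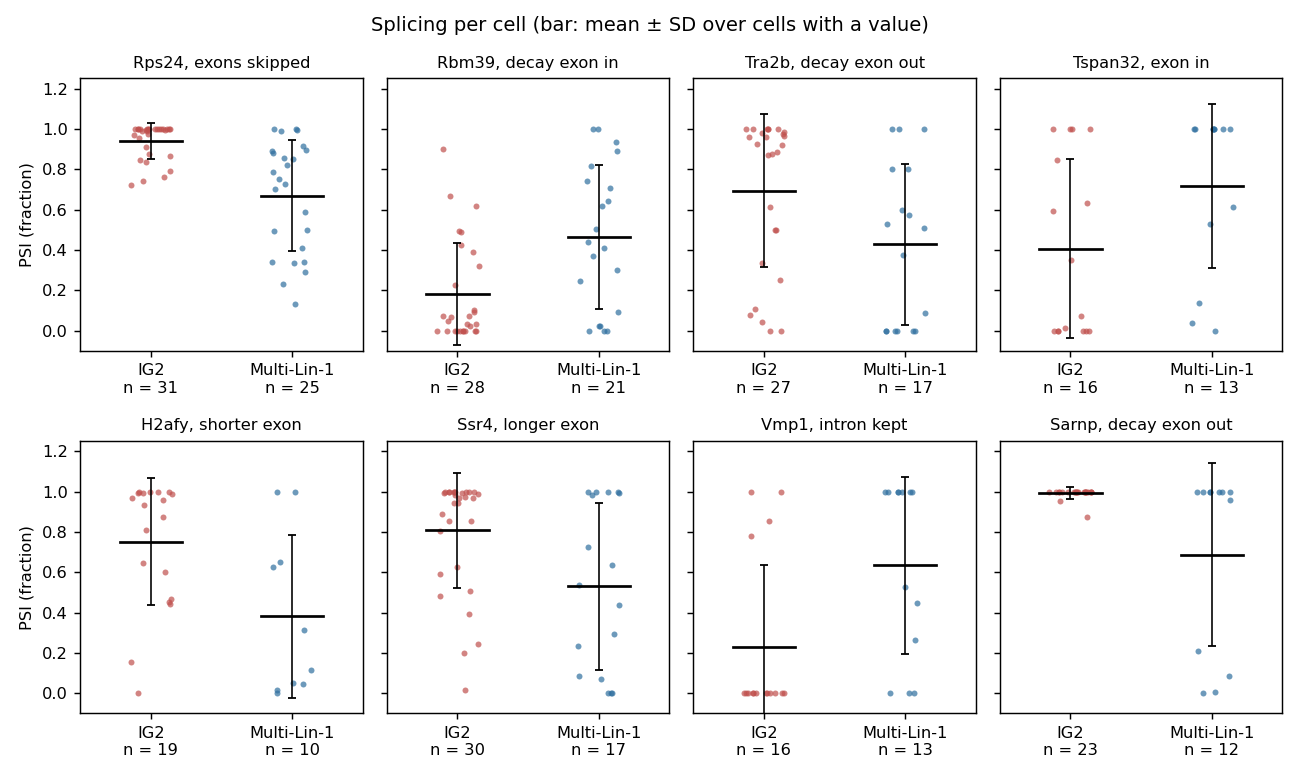
PSI of 8 splice forms in each IG2 cell (red) and Multi-Lin-1 cell (blue) that had a value, with the mean and SD; error bars run past 0 or 1 because many cells sit at the ends. Rps24 and Sarnp are tight in IG2 and spread in Multi-Lin-1, while the other genes have cells at or near both ends in each state. The Sarnp panel is titled as a decay exon, which was not checked for that gene.

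Pairs of acceptor sites 3 bases apart made up a visible part of the list. Such pairs gave 77 compared events in 45 genes, and 11 of them (14.3%) in 6 genes were past 0.2. The share was 2.91% over all alternative acceptor events, which include these 11. This class of event was picked out after the values were seen. Of the 584 alternative acceptor events, 112 had a mean PSI of 0.1 to 0.9 in either state. That number is not given for the pairs, so the 2 shares may not be alike. The 6 genes were H2afy, Ssr4, Srsf5, Sarnp, Stxbp2 and Tmem234. Both members of a pair describe 1 choice, so they are not separate results, but their PSI values are not exact complements. In H2afy the IG2 means of the 2 forms were 0.751 and 0.188. H2afy encodes the histone variant macroH2A1. Its form with the shorter exon had a PSI of 0 to 1 in both states, with medians of 0.932 in IG2 (19 cells) and 0.215 in Multi-Lin-1 (10 cells), and a difference of 0.370. Ssr4, a translocon-associated subunit, moved toward the longer exon in IG2, at 0.807 ± 0.285 (SD, n = 30 cells) against 0.530 ± 0.415 (SD, n = 17 cells), and its gene level was also higher there by 2.72. Srsf5, a splicing factor, used the shorter exon at 0.805 ± 0.359 (SD, n = 27 cells) in IG2 and 0.599 ± 0.474 (SD, n = 10 cells) in Multi-Lin-1. IG2 thus used the downstream acceptor more in H2afy and Srsf5 and the upstream one more in Ssr4. The starts of the longer exons follow, with the 3 bases that the choice adds or removes in capitals.
H2afy, chr13:56096205-56096234, minus strand: AAGaagcagggagaagtgagcaaggcggcc
Ssr4, chrX:73788835-73788864, plus strand: CAGaggcctgcctggaaccacagatcaccc
Srsf5, chr12:80949717-80949746, plus strand: CAGgtcaagaagcaggtcacgatctcggac
In all 3 the capitals end in AG, the dinucleotide after which an acceptor site cuts.

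Tspan32, a tetraspanin gene of blood cells, skipped a coding exon of 84 bases more often in IG2. The skipping junction had a PSI with a median of 0.448 in IG2 (17 cells, 6 at 1 and 5 at 0) and 0 in Multi-Lin-1 (13 cells, none at 1 and 8 at 0). The inclusion junction was at 0.406 ± 0.444 (SD, n = 16 cells) and 0.716 ± 0.408 (SD, n = 13 cells). In Mbnl1, a splicing regulator, skipping of a coding exon of 54 bases was at 0.768 ± 0.311 (SD, n = 31 cells) in IG2 and 0.560 ± 0.451 (SD, n = 17 cells) in Multi-Lin-1. Both exons keep the reading frame, since their lengths divide by 3, and are printed whole.
Tspan32 exon, chr7:143017201-143017284, plus strand: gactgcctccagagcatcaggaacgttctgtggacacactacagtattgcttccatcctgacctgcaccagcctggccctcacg
Mbnl1 exon, chr3:60614683-60614736, plus strand: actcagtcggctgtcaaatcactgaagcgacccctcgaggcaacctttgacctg
An exon of Hnrnpd, an RNA-binding protein gene, had an inclusion PSI of 0.706 ± 0.437 (SD, n = 16 cells) in IG2 and 0.480 ± 0.477 (SD, n = 13 cells) in Multi-Lin-1. The difference of 0.227 was 0.532 in cells numbered 079 and -0.03 in those numbered 078, so it held in 1 label number only.

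Of the intron events, Vmp1, an autophagy gene, had the largest difference. Its spliced junction had a PSI of 0.760 ± 0.430 (SD, n = 16 cells) in IG2, with 12 cells at 1, and 0.330 ± 0.426 (SD, n = 13 cells) in Multi-Lin-1, with 7 cells at 0. The difference of 0.430 was 0.584 in cells numbered 078 and 0.0849 in those numbered 079. Zfp207, a zinc finger gene of the spindle, kept its intron at 0.0572 ± 0.111 (SD, n = 18 cells) in IG2 and 0.347 ± 0.473 (SD, n = 17 cells) in Multi-Lin-1, where 5 cells were at 1 and 9 at 0. Mcm4, a helicase subunit gene, went the other way: its intron was spliced in all 12 Multi-Lin-1 cells with a value (PSI of 1) and at 0.710 ± 0.435 (SD, n = 17 cells) in IG2. Srsf5 had a second event of this form, at 1 in all 11 Multi-Lin-1 cells and 0.758 ± 0.384 (SD, n = 26 cells) in IG2. Tmem256 and 0610010K14Rik completed the named events, with a donor choice of 0.713 and 0.455 and an exon-skipping junction of 0.194 and 0.540 in IG2 and Multi-Lin-1.

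**Figure D5:**
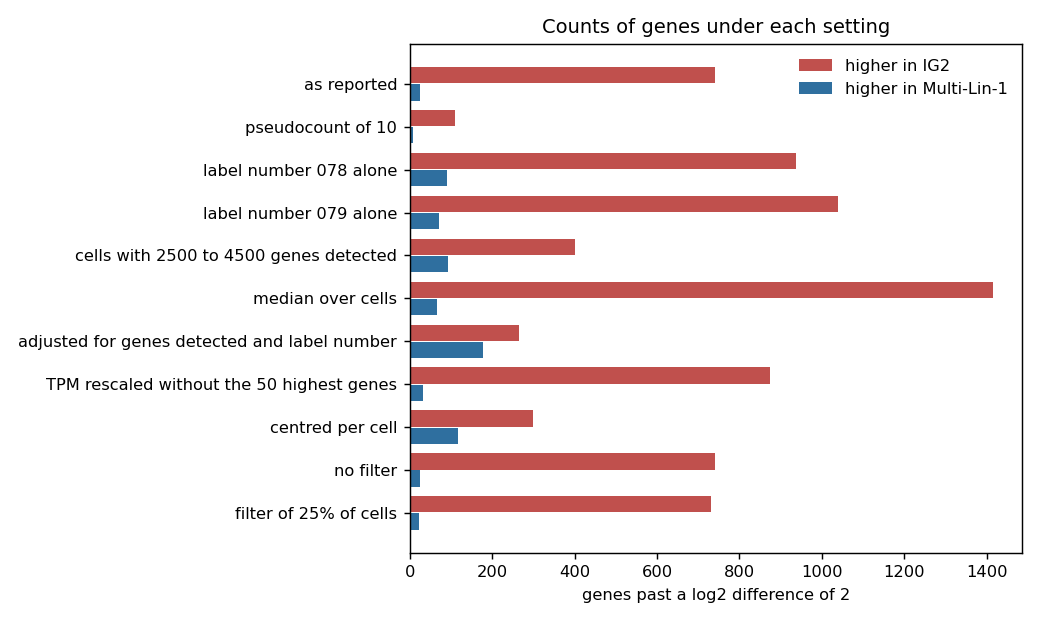
Number of genes past a log2 difference of 2 in each direction as reported and under 10 other settings. IG2 has more genes under every setting shown, from 110 against 8 with a pseudocount of 10 to 1416 against 67 with medians, and the 2 counts are closest, 264 and 178, after adjustment for detected genes.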

How the data were processed

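Expression and splicing were measured by single-cell RNA-seq in 96 labelled cells of 1 genotype. The authors deposited expression as log2 values, log2(TPM + 1) per the file headers and values (TPM sums to 1000000 in each cell), and splicing as PSI, a fraction from 0 to 1, with a state for part of the cells. The submitters' processing notes name RSEM, Bowtie2, STAR, mm9 and mm10 without their roles. How the states and PSI were computed is not given in the sources used here. Of the PSI columns 1142, and of the state entries 511, matched no labelled cell and were not used.

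Cells were matched to labels by number. Genes detected (TPM of 1 or more) in at least 10% of the 57 cells were kept, and differences of means over cells were computed with a pseudocount of 1 as deposited. Counts used a difference of 2 (log2) or 0.2 (PSI, 10 or more cells a state). Cells were not treated as replicates, so no p-value was computed. The members and gene lists were chosen with earlier results of these data known. Named genes were the 12 largest differences per direction among counted genes detected in at least 50% of the cells of the higher state and of the same sign in label numbers 078 and 079, with all members of 27 lists (413 genes) and Zbtb7b. Named events were those of the 8 genes with the largest differences per direction, with 5 or more cells of each state in each label number and the same sign, and counted events of genes in a splicing list. The script was tested on simulated data. Intervals are exact Clopper-Pearson at 95%. Python 3.11.15, pandas 2.3.3, NumPy 2.4.6, SciPy 1.17.1 and matplotlib 3.10.9 were used. Exon sequences came from GENCODE vM21 transcripts and promoters from RefSeq on GRCm38.p6. Alternatives were another pseudocount, filter and threshold, each label number alone, cells of similar numbers of detected genes, medians, adjustment for detected genes, rescaling without the 50 highest genes and centring.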

Additional observations from a re-analysis of the deposited data

How the results depend on the processing

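The counts of genes higher in IG2 and in Multi-Lin-1, 740 and 24 as reported, were 110 and 8 with a pseudocount of 10, 401 and 93 in cells with 2500 to 4500 detected genes, 1416 and 67 with medians over cells, 264 and 178 after adjustment for detected genes and label number, and 300 and 117 after centring. Among cells numbered 078 or 079 alone the counts for Multi-Lin-1 were 90 and 72. With thresholds of 1 and 3 they were 2512 and 207, and 177 and 9. They stayed within 1.5 times the reported counts with no filter, a filter of 25% of cells, and TPM rescaled without the 50 highest genes (875 and 31). The 49 and 44 splicing events became 98 and 96 in cells numbered 078, 109 and 125 in cells numbered 079, and 207 and 234 in cells with 2500 to 4500 detected genes. These 3 subsets also had a lower minimum of 5 cells a state in place of 10, so 6522, 7527 and 12925 events were compared in place of 6235. With all cells the counts became 317 and 358 with at least 5 cells a state, 11 and 10 with at least 15, 196 and 192 at a threshold of 0.1, and 6 and 11 at 0.3. The counts of events thus depend heavily on how few cells are allowed. Centring moved the median difference by -0.70 and adjustment by -0.51. Median detected genes at a TPM of 10 or more were 2946 in IG2 and 2218 in Multi-Lin-1. The median of the G2/M list reversed after adjustment (-0.30), as did 3 Hnrnpd events among cells numbered 078 (0.0224, -0.0318 and -0.0925). All 24 named genes kept their direction under all 8 alternatives run for them. Their choice already required the same sign in each label number and took the largest differences in the same cells. That result was therefore largely set by the choice. Apart from the minimum of cells and the thresholds, which set the counts by construction, the cause of these changes was not tested. No paired analysis was possible because the labels put all cells in 1 group, no number ties an IG2 cell to a Multi-Lin-1 cell, and the result comes from no test. The label numbers 078 and 079, which both states share, entered as a term of the adjustment and as within-number values. Read depth per cell is unknown, and an undetected transcript may be present.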

Other observations

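A single Multi-Lin-1 cell held S100a9, a gene of mature neutrophils, at 16.25 on the log2(TPM + 1) scale, the highest value of that gene in the 57 cells. S100a9 was detected in 6 Multi-Lin-1 cells and 1 IG2 cell, and S100a8 in 8 and 5, while Camp and Ltf were under a TPM of 1 in every cell. Over the secondary granule and neutrophil list the summed level ran from 0 to 78100 TPM in Multi-Lin-1 and from 0 to 1000 TPM in IG2, with medians of 0 and 19 TPM. The source of this transcript in that cell was not tested.

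Of the genes in which splicing was examined by list, 2 RNA-binding protein genes were past a log2 difference of 2. Ptbp1, a repressor of exon inclusion, differed by 2.62 and Hnrnpa1 by 2.15, both higher in IG2. These values were 2 of the 9 members of that list past 2 in IG2, beside 4 primary granule genes, Elane, Mpo, Ctsg and Prtn3, and Pkm, Cd44 and Spi1. Srsf2, at means of 9.45 in IG2 and 9.47 in Multi-Lin-1, did not follow them.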
